A study of Mus musculus with 4 samples.

Results

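Gata1, Klf1, Tal1, Nfe2, Gfi1b, Zfpm1 and Lmo2, which encode nuclear regulators of the red cell programme, and Epor, which encodes the erythropoietin receptor, were examined in RNA-seq of mouse cells labelled as myeloid. The 8 genes were chosen by their symbols, without a threshold on any value but with earlier results of these data known. Each had 1 row among the 24706 genes of the deposited tables. The 4 libraries carried the genotype labels wt and cko, with 2 libraries each. The study describes the cko mice as PD-1f/f; LysM-Cre, in which the floxed exon of Pdcd1 is cut out in cells that have expressed lysozyme M (Lyz2), and their controls as PD-1f/f, which carry the same floxed alleles without Cre. LysM-Cre is a driver of the myeloid lineage, and red cell precursors are not among the cells it is known for. The source is given as myeloid cells isolated from fetal liver, as CD11b+ cells sorted on postnatal day 3, or as whole livers on postnatal day 2, depending on the section of the study. Neither the number of animals behind a library nor their sex is stated, so the p-values measure only the spread between these libraries.

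In the fetal liver, red cells arise from progenitors in which GATA1 binds GATA motifs together with the bHLH factor TAL1, the bridging protein LMO2 and LDB1. KLF1 binds CACCC boxes in the globin genes and in many genes of the red cell membrane, NFE2 pairs with a small MAF protein, GFI1B represses transcription through KDM1A and RCOR1, and ZFPM1 (FOG1) is the cofactor that GATA1 recruits. Erythropoietin signals through EPOR, JAK2 and STAT5 and keeps the late progenitors alive. Several of these regulators are not restricted to red cells: NFE2, GFI1B, TAL1 and GATA1 also act in megakaryocytes, GATA1 in mast cells and eosinophils, and LMO2 in stem cells.

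Upstream sequences are shown because the members are described as targets of GATA and CACCC-binding factors, members of this set among them. RefSeq promoter windows (GRCm38.p6) existed for 6 of the 8 genes, in 7 windows, and the 250 bases before each annotated start were searched on both strands. The runs below belong to Gata1, Klf1 and Gfi1b, whose levels differed most among the tested members, and to the receptor gene Epor, read 5′ to 3′ on the strand of the gene, and capitals mark GATAA or CACCC or their reverse complements.
Gata1: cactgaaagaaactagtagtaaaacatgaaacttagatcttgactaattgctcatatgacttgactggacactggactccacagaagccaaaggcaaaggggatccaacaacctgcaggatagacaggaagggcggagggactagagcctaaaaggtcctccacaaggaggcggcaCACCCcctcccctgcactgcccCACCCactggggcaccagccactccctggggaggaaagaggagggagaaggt
Klf1: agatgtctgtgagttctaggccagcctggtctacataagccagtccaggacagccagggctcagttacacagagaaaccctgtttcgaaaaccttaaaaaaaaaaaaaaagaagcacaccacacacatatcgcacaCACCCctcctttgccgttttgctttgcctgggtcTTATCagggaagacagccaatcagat
Gfi1b: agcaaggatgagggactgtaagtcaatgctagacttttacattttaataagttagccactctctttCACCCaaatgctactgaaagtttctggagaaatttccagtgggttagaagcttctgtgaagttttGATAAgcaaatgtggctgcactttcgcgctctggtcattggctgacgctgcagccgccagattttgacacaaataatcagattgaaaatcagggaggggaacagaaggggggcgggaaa
Epor: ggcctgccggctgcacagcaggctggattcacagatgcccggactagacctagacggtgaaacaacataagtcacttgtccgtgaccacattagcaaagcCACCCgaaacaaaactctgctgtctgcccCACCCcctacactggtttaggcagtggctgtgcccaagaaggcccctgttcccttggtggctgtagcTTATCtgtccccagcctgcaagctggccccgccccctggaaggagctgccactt
The Gata1 run lies at chrX:7967911-7968160 on the minus strand, inside the longer GENCODE gene model and outside its exons. The Klf1 run is chr8:84901732-84901927 on the plus strand and holds 196 bases, since it stops where the annotated first exon begins. The Gfi1b run is chr2:28621983-28622232 and the Epor run chr9:21963577-21963826, both on the minus strand. GATAA was found at position -80 from the RefSeq start in Klf1, at -119 in Gfi1b, at -54 in Epor and at -205 in 1 of the 2 windows of Tal1, and in no window of Gata1 or Zfpm1, which is 4 of 7 windows against 22.6% of 32817 mouse windows of the same length. CACCC was present in 6 of 7 windows against 52.0%. The E-box CANNTG stood in 4 of 7 windows against 66.2% and shared 1 base with CACCC in Gfi1b, and the NFE2-type motif TGANTCA stood in 0 of 7 against 6.75%. A match is a description of the letters in a window, and no match says nothing of the factor.

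The libraries held between 17691506 and 22212408 reads, recovered from the deposited FPKM values (fragments scaled to gene length and to library depth). The label was checked against myeloid markers, all 14 of which were detected, with Itgam, the gene of CD11b, between 48.5 and 54.3 FPKM and a summed marker level of 117600 and 94696 FPKM in wt and 54328 and 48372 FPKM in cko. Most of that sum came from S100a9, S100a8 and Lyz2, at 52186, 32243 and 31306 FPKM in wt replicate 1. The median log2 difference of the 14 myeloid markers was 0.01. Red cell markers were also present, at 3807 and 2398 FPKM in wt and 1469 and 1564 FPKM in cko for the sum of 11 genes. Pdcd1, the targeted gene, stood at 28.5 and 34.7 FPKM in wt and at 17.1 and 21.4 FPKM in cko, a log2 difference of -0.69 ± 0.19 (SE) with an adjusted p of 0.218 (limma), and its row covers all exons. Of the 4 libraries, wt replicate 2 stood apart: it alone held Y-linked transcripts at a clear level, with Ddx3y at 24.9 FPKM against 0.00866 FPKM or less, and its Xist level was 0.0119 FPKM against 4.91 to 7.98 FPKM in the others. The difference of each tested member is therefore also given without that library.

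GATA1, the zinc finger factor on which terminal red cell maturation depends, is encoded on the X chromosome (ENSMUSG00000031162, chrX:7959260-7978071, minus strand, 2438 bp of exons). Gata1 stood at 14.5 and 7.50 FPKM in wt, from 783 and 344 reads, and at 5.89 and 5.96 FPKM in cko, from 269 and 257 reads. The cko libraries lay together and below both wt libraries, and the wt libraries differed from each other by a factor of 1.93. Counting error was small beside this spread, as the exact (Clopper-Pearson) 95% interval was 32.8 to 37.8 RPM (reads scaled to library depth alone) in wt replicate 1 and 16.4 to 20.3 RPM in wt replicate 2. The log2 difference, cko minus wt, on the log2(FPKM + 1) scale was -0.73 ± 0.30 (SE, n = 2 libraries per group), with a 95% interval of -1.48 to 0.02 and an adjusted p of 0.314 (limma, Benjamini-Hochberg over all genes tested). Without wt replicate 1 it was -0.30, and without wt replicate 2 it was -1.16.

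ZFPM1 and TAL1, the cofactor and the bHLH partner of GATA1, were near the lower limit of these libraries. Zfpm1 (ENSMUSG00000049577, chr8:122282141-122337251, plus strand) stood at 0.797 and 0.334 FPKM in wt and at 0.198 and 0.387 FPKM in cko, which are 62, 22, 13 and 24 reads. Tal1 (ENSMUSG00000028717, chr4:115056426-115071755, plus strand) stood at 0.329 and 0.291 FPKM in wt and at 0.414 and 0.245 FPKM in cko, which are 32, 24, 34 and 19 reads. Groups overlapped for both genes, and both were below the mean of 1 FPKM required for the test. Fitted without that filter, the log2 difference was -0.26 ± 0.22 (SE) for Zfpm1 and 0.02 ± 0.14 (SE) for Tal1, with adjusted p values of 0.679 and 0.960 (limma). On recovered reads with voom, where low genes are less compressed than by the added 1 FPKM, the Zfpm1 difference was -0.94 ± 0.81 (SE). A difference of either gene was not detectable at this depth.

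LMO2, the bridging protein of the same complex, was encoded by a transcript near 10 FPKM in wt (ENSMUSG00000032698, chr2:103957986-103981878, plus strand, 2166 bp of exons). Lmo2 stood at 9.27 and 10.3 FPKM in wt and at 8.23 and 8.01 FPKM in cko. The replicates lay close in both groups, and the cko libraries were below the wt libraries by a small margin, with a ratio of means of 0.832. Its log2 difference was -0.24 ± 0.16 (SE), the 95% interval was -0.63 to 0.16 and the adjusted p was 0.478 (limma). It was -0.17 without wt replicate 2 and -0.30 without wt replicate 1. With red cell and hepatocyte genes out of the library total, and the remaining FPKM scaled to equal sums, it was -0.048. The groups then overlapped.

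KLF1, the CACCC-binding activator of the adult beta-globin gene, was the only member with an unadjusted p under 0.05. Klf1 (ENSMUSG00000054191, chr8:84901928-84905291, plus strand, 1530 bp of exons) stood at 25.5 and 19.7 FPKM in wt, from 868 and 566 reads, and at 16.3 and 13.4 FPKM in cko, from 468 and 364 reads. Both cko libraries were below both wt libraries, and the ratio of means was 0.659. The log2 difference was -0.57 ± 0.20 (SE), with a 95% interval of -1.05 to -0.08, an unadjusted p of 0.0298 and an adjusted p of 0.261 (limma). It was -0.75 without wt replicate 2 and -0.38 without wt replicate 1, and the unadjusted p was above 0.05 without wt replicate 1 or cko replicate 2. With red cell and hepatocyte genes out of the library total it was -0.37 with an unadjusted p of 0.0997 (limma).

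GFI1B, the repressor that follows GATA1 in the red cell and megakaryocyte lineages, had an overlapping pattern. Gfi1b (ENSMUSG00000026815, chr2:28609450-28621982, minus strand, 1830 bp of exons) stood at 21.6 and 12.7 FPKM in wt and at 12.8 and 9.24 FPKM in cko. Only wt replicate 1 stood above the rest, since wt replicate 2 and cko replicate 1 had nearly the same level. The log2 difference was -0.56 ± 0.29 (SE), the 95% interval was -1.29 to 0.17 and the adjusted p was 0.391 (limma). It was -0.20 without wt replicate 1, -0.93 without wt replicate 2 and -0.37 with red cell and hepatocyte genes out of the library total.

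NFE2, the p45 subunit that pairs with small MAF proteins, was by far the most abundant member per length. Nfe2 (ENSMUSG00000058794, chr15:103248212-103258403, minus strand, 2988 bp of exons) stood at 106 and 131 FPKM in wt and at 137 and 101 FPKM in cko, from 5342 to 7682 reads per library. The lowest and the highest level were both in cko, and the ratio of means was 1.003. The log2 difference was -0.01 ± 0.20 (SE), with a 95% interval of -0.51 to 0.50 and an adjusted p of 0.993 (limma). It was 0.14 without wt replicate 2 and -0.22 without cko replicate 1, so its direction changed with the libraries used.

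EPOR, the only receptor of the set, was expressed at a level near that of Lmo2. Epor (ENSMUSG00000006235, chr9:21958897-21963506, minus strand, 1989 bp of exons) stood at 9.76 and 10.9 FPKM in wt and at 11.1 and 7.82 FPKM in cko. Its highest and lowest levels were again both in cko, and the groups overlapped. The log2 difference was -0.13 ± 0.21 (SE), the 95% interval was -0.65 to 0.39 and the adjusted p was 0.777 (limma). It was -0.06 without wt replicate 2, -0.36 without cko replicate 1 and 0.09 without cko replicate 2, and it was also positive, at 0.059, with red cell and hepatocyte genes out of the library total.

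**Figure D1:**
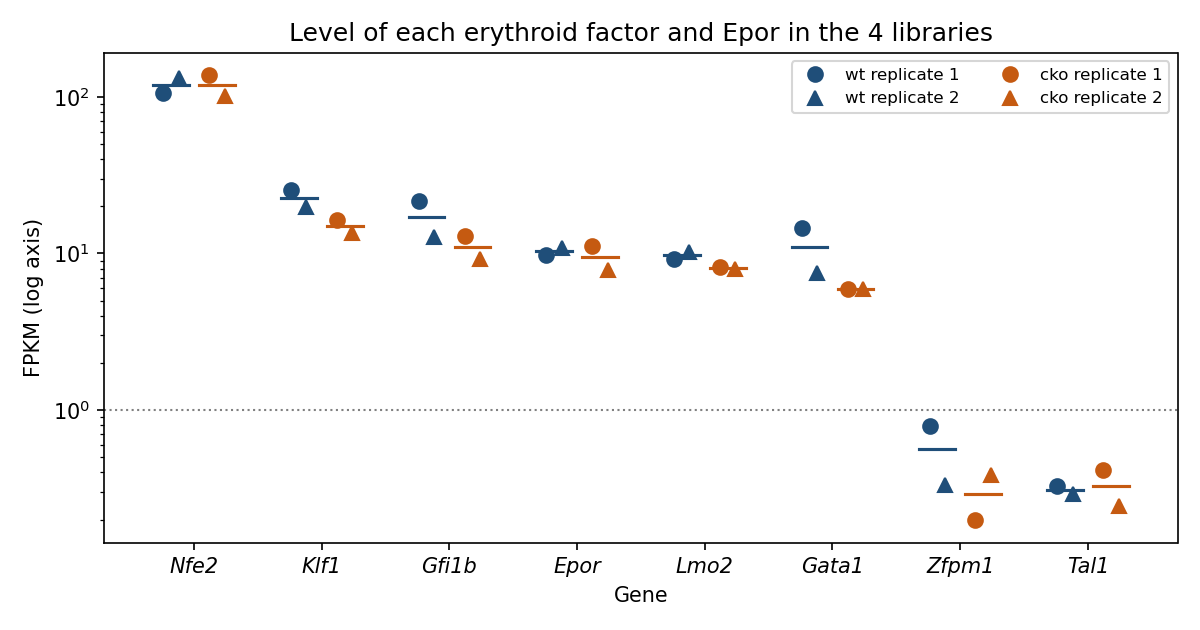
FPKM of the 8 genes in each library on a log axis, with bars at the group means and a dotted line at the minimum mean of 1 FPKM for the test. Nfe2 lies near 119 FPKM in both groups, Tal1 and Zfpm1 lie below 1 FPKM in every library, and the cko libraries lie below the wt libraries for Klf1, Lmo2 and Gata1.

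The levels per length fell into tiers in both groups, set by whether the ranges of neighbours overlapped. In wt the means ran from Nfe2 at 119 ± 17.5 FPKM (SD, n = 2) through Klf1 at 22.6 ± 4.16, Gfi1b at 17.1 ± 6.34, Gata1 at 10.98 ± 4.92, Epor at 10.3 ± 0.808 and Lmo2 at 9.76 ± 0.695 to Zfpm1 at 0.565 ± 0.328 and Tal1 at 0.310 ± 0.0267 FPKM. Neighbours from Klf1 to Lmo2 overlapped in their ranges, whereas Nfe2 stood above and Zfpm1 and Tal1 below them. Zfpm1 and Tal1 were apart by a narrow margin, at 0.334 FPKM in wt replicate 2 against 0.329 FPKM in wt replicate 1. In cko the order was Nfe2 at 119 ± 25.5 FPKM, Klf1 at 14.9 ± 2.03, Gfi1b at 11.03 ± 2.54, Epor at 9.45 ± 2.31, Lmo2 at 8.12 ± 0.153, Gata1 at 5.92 ± 0.0505, Tal1 at 0.330 ± 0.120 and Zfpm1 at 0.293 ± 0.134 FPKM. Gata1 stood between Gfi1b and Epor in wt, with ranges that overlapped, and below Lmo2 in cko, where the ranges of both were apart. In cko Gfi1b overlapped with Epor, Epor with Lmo2 and Tal1 with Zfpm1, whereas Klf1 stood above Gfi1b without overlap.

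Of the 6 members tested, all 6 had a negative log2 difference, Nfe2 with a value near 0, and the median was -0.40 against 0.09 over all 10779 genes tested. The sign held for all 6 under median-of-ratios and quantile scaling. It held for 4 of 6 with red cell and hepatocyte genes out of the library total. Epor was then at 0.06 and Nfe2 at 0.20. That setting scaled the FPKM of the remaining genes to equal sums. Before it, all genes summed to 491983 and 457127 FPKM in wt and to 412778 and 403900 FPKM in cko. The largest list taken out, red cell structure and oxygen transport, held 4197 and 2654 FPKM in wt and 1688 and 1779 FPKM in cko. The setting thus acted mainly as a scaling to equal sums. Both cko libraries were below both wt libraries for 3 of the 6 (Gata1, Klf1 and Lmo2), whereas 18.0% of all genes tested showed that order and 33.6% the opposite order. An unadjusted p under 0.05 was reached by 1 member, Klf1, in the lower direction, against a background of 4.95% lower and 11.4% higher. The threshold of the study's methods, a log2 difference of at least 1 in size with an adjusted p under 0.05, was passed by 0 members and by 0 (0%) of all genes tested. The smallest adjusted p of any gene was 0.129 (limma), and 1768 genes had an unadjusted p under 0.05, as did 1858 genes with voom, which also called 0 genes. With 2 libraries against 2, exact permutation of 1 gene gives a two-sided p of 1 in 3 at best, which cannot pass 0.05.

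**Figure D2:**
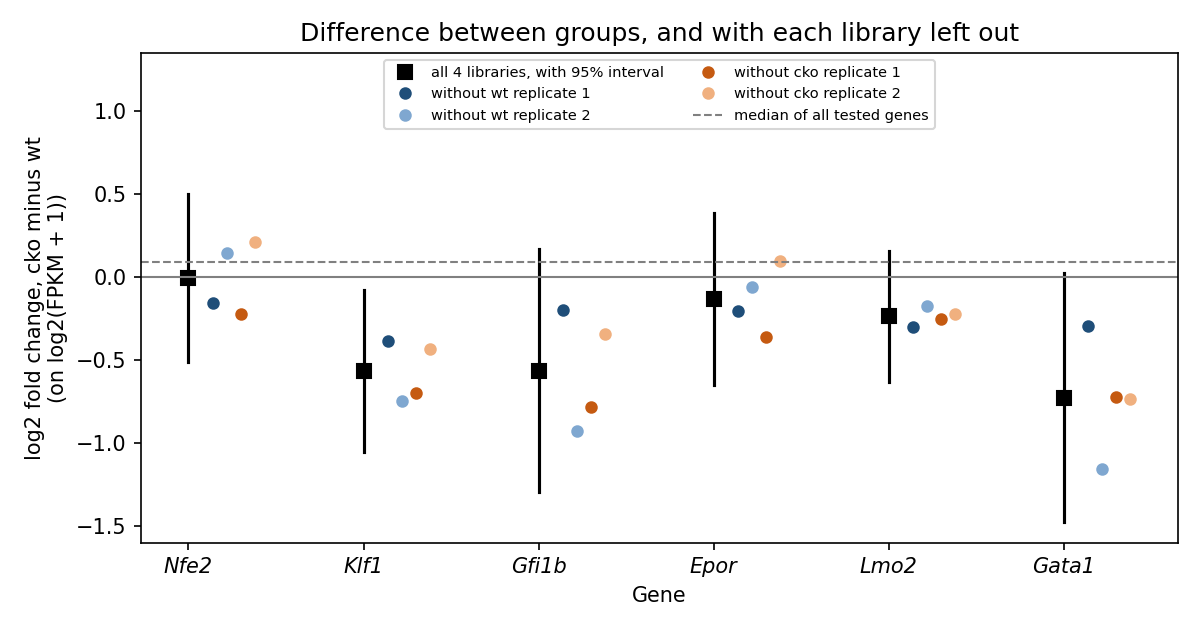
Log2 difference, cko minus wt, on the log2(FPKM + 1) scale for the 6 members tested, with 95% intervals (black), and the value with each library left out (coloured points). The interval lies below 0 for Klf1 alone, and leaving out wt replicate 1 moves Gata1 from -0.73 to -0.30 and Gfi1b from -0.56 to -0.20.

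Most red cell transcripts were lower in cko too. Of 26 tested genes of red cell structure and oxygen transport, 25 had a negative log2 difference, and the median was -0.52. Of the 25, 11 had an unadjusted p under 0.05, against 4.95% of all genes tested in that direction, and 0 passed after adjustment (limma). Hbb-bs, an adult beta-globin gene, stood at 653 to 1007 FPKM in wt and 358 to 424 FPKM in cko, Hba-a1, an adult alpha-globin gene, differed by -0.97 ± 0.20 (SE), and Epb42 of the membrane skeleton by -1.04 ± 0.20 (SE). Bpgm, the enzyme that makes 2,3-bisphosphoglycerate, stood at 44.3 and 25.8 FPKM in wt and at 16.0 and 14.3 FPKM in cko. Near-identical copies (Hbb-bs with Hbb-bt, Hba-a1 with Hba-a2) can share reads, so the split between them is uncertain. The list median was -0.30 without wt replicate 1 and -0.84 without wt replicate 2. In bulk libraries fewer red cell precursors and less of these transcripts per cell cannot be told apart.

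The level of each factor was also set beside that of the red cell genes in the same library. The mean log2(FPKM + 1) of the 26 red cell genes was 4.85 and 4.32 in wt and 4.01 in both cko libraries. Relative to that mean, the group difference was 0.01 for Klf1, 0.01 for Gfi1b and -0.15 for Gata1, and it was 0.34 for Lmo2, 0.44 for Epor and 0.57 for Nfe2. For Gata1 the relative value was -0.90 in wt replicate 1 and between -1.23 and -1.21 in the other 3 libraries. For Epor and Lmo2 it was also wt replicate 1 that stood apart, at -1.42 and -1.49 against -0.87 to -0.41 in the others. Without wt replicate 1 the relative difference was 0.01 for Lmo2, 0.10 for Epor, 0.15 for Nfe2 and 0.01 for Gata1, so the higher relative levels in cko rested on that library. Klf1 lay between -0.12 and 0.14 and Gfi1b between -0.21 and 0.23 with each library left out. These relative levels are descriptions without a test, since red cell genes and factors were read from the same 4 libraries. KLF1 is itself described as binding globin and red cell membrane genes. The relative levels therefore cannot separate fewer precursors from less transcript per cell.

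**Figure D3:**
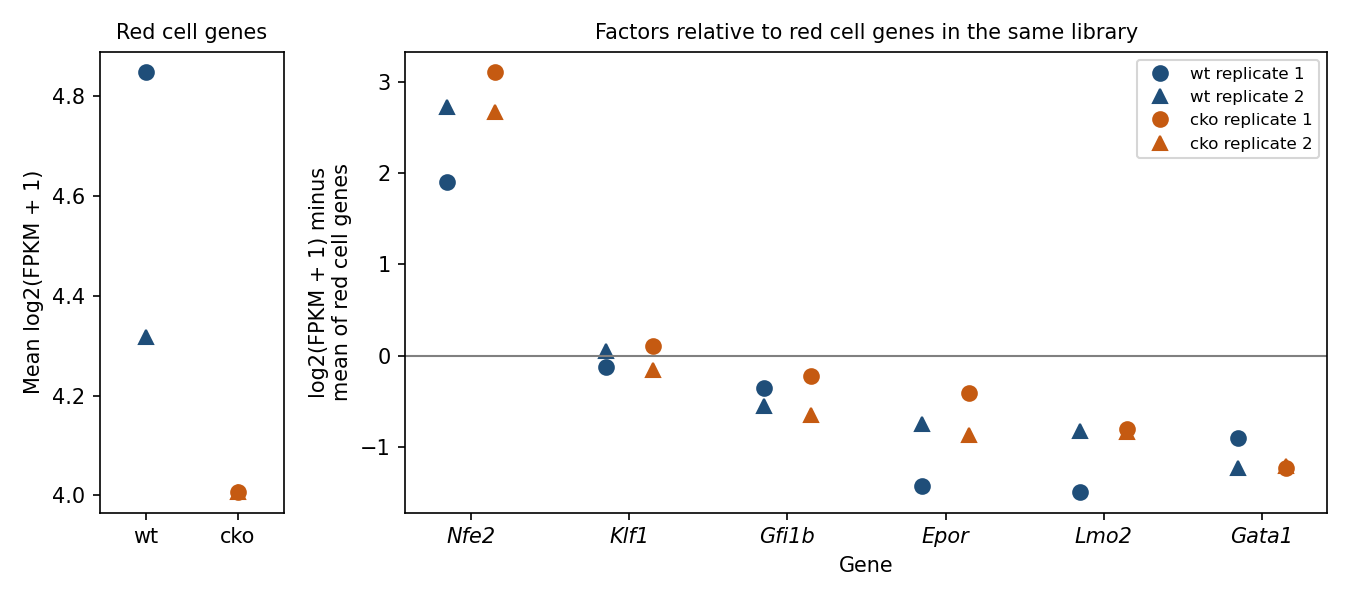
Left, mean log2(FPKM + 1) of 26 red cell genes in each library. Right, log2(FPKM + 1) of the 6 tested members minus that mean, where the groups overlap for all 6 and where wt replicate 1 is the lowest library for Nfe2, Epor and Lmo2.

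Genes of heme synthesis and iron delivery and of early progenitors also leaned lower. Of 15 heme and iron genes, 11 had a negative and 4 a positive difference, 4 of the former had an unadjusted p under 0.05 and the median was -0.29, or -0.16 without wt replicate 1 and -0.49 without wt replicate 2. Alas2, the erythroid form of the first heme enzyme and a GATA1 target, stood at 158 and 116 FPKM in wt and at 85.6 and 84.2 FPKM in cko, a difference of -0.67 ± 0.18 (SE). Fech, Uros and Urod, later enzymes of the pathway, differed by -0.53, -0.55 and -0.45. Among 10 early erythroid progenitor genes, 7 were lower and 3 higher, with a median of -0.44, or -0.22 without wt replicate 1. Rhag, a subunit of the Rh complex, differed by -0.81 and Slc40a1, the iron exporter ferroportin, by -0.46, while Cdk6, a cell cycle kinase, stood at 8.03 and 7.82 FPKM in wt and at 13.1 and 12.9 FPKM in cko, a difference of 0.65. In both lists 0 genes passed after adjustment (limma).

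Partners and corepressors of the factors lay on both sides of 0. Of 20 tested complex partners and corepressors, 4 were lower and 16 higher, 0 and 3 with an unadjusted p under 0.05, and the median was 0.13, near that of all genes, or 0.25 without cko replicate 2. Ldb1, which dimerises the GATA1 complex, stood at 3.24 and 5.55 FPKM in wt and at 4.66 and 3.83 FPKM in cko. Tcf3, the E protein partner of TAL1, differed by 0.16 ± 0.22 (SE), and Cbfa2t3 (ETO2), a corepressor of the complex, by 0.07 ± 0.26 (SE). Lyl1, the paralogue of Tal1, was far more abundant than Tal1, at 102 and 122 FPKM in wt and at 107 and 71.9 FPKM in cko. The NFE2 partners Mafk and Mafg and the competing factor Bach1 differed by 0.13, 0.04 and 0.05, each within its SE of 0.16, 0.16 and 0.27. Kdm1a, the demethylase that GFI1B recruits, stood at 0.574 and 2.00 FPKM in wt and at 3.57 and 4.35 FPKM in cko, a difference of 1.19 ± 0.35 (SE) with an adjusted p of 0.232 (limma). Cbfa2t2 (0.57), Maff (0.78) and the acetyltransferase gene Crebbp (0.36) were the other partners with the lowest p values.

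Other factors of the erythroid programme lay on both sides of 0 as well. Of 15 tested, 6 were lower and 9 higher, 3 in each direction had an unadjusted p under 0.05 and the median was 0.09, or -0.04 without cko replicate 1. Trim58 and Trim10, both known from late red cell maturation, differed by -0.77 ± 0.20 and -0.97 ± 0.29 (SE). Klf13 and Ikzf1, both known also in lymphoid and myeloid cells, differed by 0.77 ± 0.15 and 0.67 ± 0.13 (SE). GATA2, which precedes GATA1 in progenitors and mast cells, was encoded by a transcript at 1.06 and 0.541 FPKM in wt and at 0.514 and 0.859 FPKM in cko, below the filter. Gfi1, the paralogue of Gfi1b, differed by -0.19 ± 0.29 (SE) at 1.01 to 2.09 FPKM.

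Most tested paralogues and opposing myeloid factors, but not all, leaned the other way. Of 12 tested paralogues, 3 were lower and 9 higher, and the median was 0.36. An unadjusted p under 0.05 (limma) was reached by 6 of the higher ones, against 11.4% of all genes tested in that direction. Among them were Klf3 and Klf4 of the KLF1 family, at 0.53 and 0.86, and the cytokine receptor genes Csf3r and Csf2rb, at 0.57 and 0.91. Spi1, which encodes the myeloid factor PU.1 known to antagonise GATA1, stood at 77.3 and 126 FPKM in wt and at 264 and 145 FPKM in cko, a difference of 0.98 ± 0.36 (SE) with an adjusted p of 0.275 (limma). Of 9 myeloid counter-factors, 3 were lower and 6 higher, with a median of 0.31, or 0.15 without wt replicate 1. Irf8, a monocyte and dendritic cell factor, differed by 0.39 ± 0.16 (SE). The 3 lower counter-factors were Cebpe, Fli1 and Gfi1, at -0.58, -0.28 and -0.19.

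Most signalling genes downstream of the receptor had positive differences. Of 13 tested genes of EPO receptor signalling, 1 was lower and 12 higher. An unadjusted p under 0.05 (limma) was reached by 5 of the higher ones, against 11.4% of all genes tested in that direction. The median was 0.28, or 0.08 without wt replicate 1 and 0.45 without wt replicate 2. Over all genes tested the median was 0.09, or 0.07 without wt replicate 1 and 0.11 without wt replicate 2. Without wt replicate 1 the list thus lay near all genes. Jak2, the kinase bound to the receptor, stood at 4.46 and 3.90 FPKM in wt and at 5.60 and 8.33 FPKM in cko, a difference of 0.60 ± 0.23 (SE). Stat5a and Stat5b, its transcription factors, differed by 0.21 ± 0.23 and 0.22 ± 0.18 (SE). Csf2rb, the shared beta subunit of the IL-3 and GM-CSF receptors, the phosphatase gene Ptpn11, the adaptor gene Grb2 and the kinase gene Lyn differed by 0.91, 0.85, 0.58 and 0.60, and all of these serve other myeloid cytokine receptors as well.

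Known response genes of EPO and STAT5 went both ways. Of 11 tested, 3 were lower and 8 higher. An unadjusted p under 0.05 (limma) was reached by 1 and 4 of these, against 4.95% lower and 11.4% higher over all genes tested. The median of 0.76 was 0.15 without cko replicate 2 and 0.21 with voom. Socs3, a feedback inhibitor of cytokine receptors, stood at 37.1 and 16.2 FPKM in wt and at 65.3 and 216 FPKM in cko, with cko replicate 2 far above the rest. Cish, another feedback inhibitor, stood at 1.94 and 1.93 FPKM in wt and at 3.32 and 5.38 FPKM in cko, the cytokine gene Osm differed by 0.83 ± 0.21 (SE), and Trib3, a pseudokinase gene, by -0.91 ± 0.23 (SE). In both lists 0 genes passed after adjustment (limma).

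**Figure D4:**
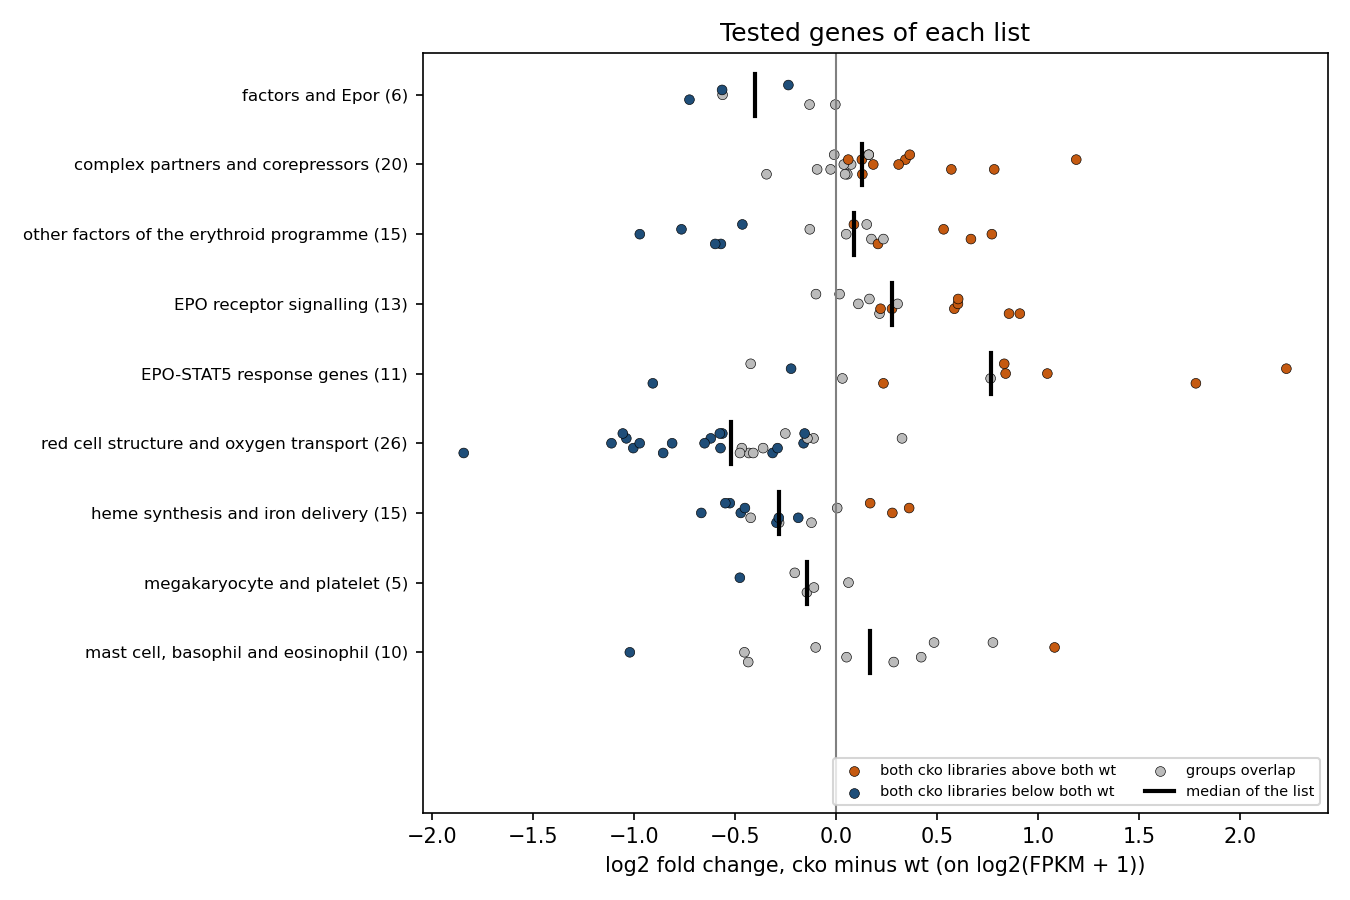
Log2 difference, cko minus wt, of every tested gene of 9 lists, with the number tested in parentheses and a bar at each median. Medians are at -0.40 for the factors and Epor and -0.52 for red cell genes, and at 0.13 for complex partners and 0.28 for EPO receptor signalling.

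Cells other than red cell precursors can also hold these factors. Of 16 megakaryocyte and platelet markers 5 were tested, with a median of -0.15, or 0.11 without wt replicate 1 and -0.40 without wt replicate 2, and their summed level was 48.3 and 34.6 FPKM in wt and 31.2 and 34.1 FPKM in cko. Pf4, the platelet factor, stood at 17.2 and 7.81 FPKM in wt and at 6.88 and 14.3 FPKM in cko, and Clec1b, Itgb3 and Nbeal2 differed by -0.15, 0.06 and -0.48. Of 10 tested mast cell, basophil and eosinophil markers, 4 were lower and 6 higher, and the summed level was 380 and 212 FPKM in wt and 225 and 349 FPKM in cko. Their median of 0.17 took values from -0.49 without wt replicate 2 to 0.83 without wt replicate 1. Prg2, an eosinophil granule protein, stood at 190 and 110 FPKM in wt and at 77.5 and 64.6 FPKM in cko, while Hdc, which makes histamine, stood at 67.9 and 65.1 FPKM in wt and at 104 and 193 FPKM in cko, and Mcpt4 and Ms4a2 overlapped between the groups. Of 2 tested stem and progenitor markers, Kit differed by -0.53 and Cd34 by 0.01.

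Markers of the liver and of the labelled myeloid cells differed between the libraries as well. Of 10 tested hepatocyte markers, 9 were lower, with a median of -0.34 (-0.71 without wt replicate 1 and -0.19 without wt replicate 2) and a summed level of 93.1 and 157 FPKM in wt and 68.0 and 81.8 FPKM in cko; Apoa1, Ahsg, Afp and Alb differed by -1.18, -0.81, -0.62 and -0.44. Of 14 myeloid markers, 7 were lower and 7 higher with a median of 0.01, 4 of the former and 3 of the latter with an unadjusted p under 0.05 and 0 after adjustment (limma). The 4 lower ones were Lyz2, S100a8, S100a9 and Ly6g, at -1.79, -1.07, -0.72 and -0.79, and the 3 higher ones, named after their values were seen, were Cd68, Csf3r and Elane, at 0.80, 0.57 and 0.41. Lyz2 also drives Cre in the cko mice, and an effect of the Cre allele on its level was not tested. None of the lists had a gene at 0 in all 4 libraries. The part of each of these cell types in the levels of the factors was not tested.

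By likeness of profile, measured as the root mean square difference of centred log2(FPKM + 1) over the 4 libraries from the mean profile of the 6 tested members, the nearest genes were Dennd2d (0.0192), Slc35a5 (0.0263), 2610002M06Rik (0.0282), Gm6104 (0.0285) and Gmpr (0.0292). The mean profile ran from 0.30 in wt replicate 1 and 0.07 in wt replicate 2 to -0.05 in cko replicate 1 and -0.32 in cko replicate 2. Dennd2d followed it with 5.90 and 4.88 FPKM in wt and 4.26 and 3.52 FPKM in cko, and Gmpr with 10.8 and 9.33 FPKM in wt and 8.31 and 6.45 FPKM in cko. With 4 libraries many profiles can lie this close.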

How the data were processed

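RNA-seq was performed on 4 mouse libraries, 2 labelled wt and 2 labelled cko. The authors deposited 1 table of FPKM values per library for 24706 genes, while their methods name RPKM; the step between reads and values is not given further in the sources used here. The submitters' processing notes name Bowtie2 2.2.3, TopHat2 2.0.12, HTSeq 0.6.0 and the build mm9, whereas 92.61% of the positions in the files equalled those of GENCODE M21 (GRCm38), so positions are those of GRCm38. FPKM times exon length gave whole reads (tolerance 0.02) in all libraries for 91.27% of genes, and hence the totals of 17691506 to 22212408 reads. Intervals cover counting error only.

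Values were tested as log2(FPKM + 1) with limma 3.58.1 (lmFit, eBayes with trend; R 4.3.3). No covariates were used, 10779 genes averaging 1 FPKM or more were kept, and p-values were adjusted over all of them by the Benjamini-Hochberg method. The fit was tested on simulated data. Fold changes on this scale understate those of low genes. Alternatives were a pseudocount of 0.1, no filter, a mean of at least 5 FPKM, other scalings, eBayes without trend, a block for the replicate number, limma's voom on the recovered reads of genes averaging 10 or more, and omission of each library. The setting with red cell and hepatocyte genes out of the total scaled the FPKM of the remaining genes to equal sums. A crossed pairing, and all alternatives for levels relative to red cell genes, were added after the values were seen. The labels give no batch.

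The 8 genes and all lists were chosen with earlier results of these data known. All 8 genes were named, as were Spi1 and a chosen set of partners (Ldb1, Lyl1, Tcf3, Cbfa2t3, Mafk, Mafg, Bach1, Gata2, Gfi1, Jak2, Stat5a and Stat5b), and from each list up to 4 tested genes with the lowest unadjusted p, of which some are not reported here. Of 217 list symbols, 4 had no row, and for Itgam, with more than 1 row, the higher was used. Promoter sequences and gene starts are those of RefSeq (GRCm38.p6). Tables were made with Python 3.11.15, pandas 2.3.3 and scipy 1.17.1.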

Additional observations from a re-analysis of the deposited data

How the results depend on the processing

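Gata1, Klf1, Gfi1b and Lmo2 kept a negative difference under all 14 alternatives, but some of these could not move it. The 2 other filters, eBayes without trend, the replicate block and the crossed pairing leave the difference of a tested gene as it was. Its sign there was fixed in advance. In the alternatives that kept 2 libraries per group, no member had an adjusted p under 0.05 (limma, the smallest was 0.197). Nfe2 changed sign in 3 of its alternatives and Epor in 2: with red cell and hepatocyte genes out of the total they were at 0.20 and 0.059, and with each library left out Nfe2 ranged from -0.22 to 0.21 and Epor from -0.36 to 0.095. The median of the members was -0.40, and it was -0.25 with no filter, -0.21 with red cell and hepatocyte genes out of the total and between -0.53 and -0.25 when each library was left out in turn. The number of members with an unadjusted p under 0.05 was 1, and it was 2 with median-of-ratios scaling, quantile normalization and voom, 0 with red cell and hepatocyte genes out of the total, and 0 to 3 with a library left out (0 without wt replicate 1 or cko replicate 2, 3 without wt replicate 2). The number with both cko libraries below both wt libraries was 3, and it was 2 with red cell and hepatocyte genes out of the total, where Lmo2 overlapped, 4 with median-of-ratios scaling and with quantile normalization, and 3 to 6 with a library left out, 6 being reached without cko replicate 1; fewer libraries make such an order more frequent by construction. Over all genes, 247 passed an unadjusted p of 0.01 with a log2 difference above 1 in size, 203 higher and 44 lower. There were 126 with a mean of at least 5 FPKM, where fewer genes were tested, and 131 to 462 with a library left out. The split was 144 higher and 66 lower with median-of-ratios scaling, 150 and 79 with quantile normalization, and 348 and 17 with red cell and hepatocyte genes out of the total, where the median of all genes was 0.27. The cause of the other shifts was not tested.

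No label says that equal replicate numbers mark a pair, and the replicate differences of wt and cko correlated at -0.163 across 10779 genes. With the replicate number as a block, 2 members had an unadjusted p under 0.05, and 0 genes passed the methods threshold. With the pairing crossed, chosen after seeing the data, 2 members had an unadjusted p under 0.05 and 1 gene passed the methods threshold. Over the pseudocount, filter, scaling and voom settings together, the medians of the lists ranged from 0.02 to 0.31 for complex partners, -0.04 to 0.25 for other erythroid factors, 0.11 to 0.58 for EPO receptor signalling, 0.04 to 0.92 for EPO-STAT5 response, 0.07 to 0.57 for paralogues, 0.16 to 0.49 for counter-factors, -0.62 to -0.33 for red cell, -0.39 to -0.09 for heme and iron, -0.53 to -0.24 for early progenitor, -0.37 to 0.02 for megakaryocyte, -0.25 to 0.35 for mast cell, basophil and eosinophil, -0.62 to -0.17 for hepatocyte and -0.09 to 0.20 for myeloid genes. Depth limits Tal1 and Zfpm1, with 13 to 62 reads per library.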
